A study of Mus musculus with 19 samples.

Results

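The transcriptional repressors of the circadian clock were examined in mouse lung: the period genes Per1, Per2 and Per3, the cryptochrome genes Cry1 and Cry2, and the genes of the nuclear receptors REV-ERB alpha (Nr1d1) and REV-ERB beta (Nr1d2). Their probes were taken by gene name alone, as every array probe whose RefSeq identifier belongs to 1 of these 7 genes. The genes themselves were chosen with earlier results of these data known. The array held 7 such probes, 1 for each gene, among 55681 probes and 20660 named genes. Of the 7 probes, 6 were bright enough in lung to be tested, among 30999 probes tested in all, and the Cry1 probe was not.

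In nearly every mammalian cell the clock runs as a loop in which the activators BMAL1 (encoded by Arntl) and CLOCK switch on their own repressors. PER and CRY proteins accumulate, return to the nucleus and block the activators, while REV-ERB proteins repress Arntl itself and the ROR receptors oppose them at the same DNA elements. The RNA of most of these genes therefore rises and falls over each day, in lung as in liver, and in lung the airway club cells are known for a strong rhythm.

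The lungs came from 18 male MutaMouse animals of about 12 weeks, a transgenic strain on a BALB/C-DBA/2 background that is bred for mutation assays, so every group carried the transgene. All mice were housed singly under 12 h of light and 12 h of dark and were gavaged daily for 28 days, and lung was taken 72 h after the last dose. The sources used here give no time of day for the collection. Group D0 (5 mice, 1 to 5) received olive oil alone, and the other groups received a defined mixture of 8 polycyclic aromatic hydrocarbons in olive oil. Daily doses per kg body weight, in mg of benzo[a]pyrene equivalents, were 15 in D1 (4 mice, 21, 22, 24 and 25), 30 in D2 (5 mice, 23, 26, 28, 29 and 30) and 60 in D3 (4 mice, 31, 32, 34 and 35). Each value below is the log2 ratio of a lung to the Universal Mouse Reference RNA, a pool made from 11 mouse cell lines, and values of a group are given in the order of the mice just listed. Mouse 23 carries a number among those of D1 but is labelled D2, and it was kept there. With this animal moved to D1, the number per group would be as the published methods describe, so its dose is uncertain. Mouse 35 had a pair of arrays, which were averaged.

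The 19 arrays lay on 3 slides that each held all 4 groups, and the array position on the slide followed the dose, so position and dose cannot be told apart. In red, the lung channel, 54.5% to 64.7% of the probes were well above background on an array. The markers fitted the labelled tissue: the mean log2 ratio in D0 was 7.73 for Sftpc (surfactant protein C of alveolar type 2 cells), 8.06 for Scgb1a1 (club cell secretoglobin) and 6.04 for Ager (alveolar type 1 cells). The 4 cardiac muscle genes listed averaged a log2 ratio of 3.07 to 3.76 in the D0 mice and of 0.61 to 4.47 in the dosed mice, with none called at any dose.

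Per2, Per3 and Nr1d2 were higher in the lungs of mice given the mixture, by 1.56-fold to 1.84-fold at D2 and D3, while Per1, Cry2 and Nr1d1 did not pass the test at any dose. A gene was called where its change was at least 1.5-fold and its limma p, adjusted over all tested probes by the Benjamini-Hochberg method, did not exceed 0.05. At D1, 1 of 6 members was called higher (Nr1d2), beside 0.594% of all tested probes. At D2, 3 of 6 were called higher (Per2, Per3 and Nr1d2), beside 0.435% of the probes, and the same 3 genes were called higher at D3, beside 1.21%. None was called lower, beside 0.465% of the probes at D1, 0.19% at D2 and 1.23% at D3. The median log2 difference over the 6 members was 0.44 at D1, 0.61 at D2 and 0.53 at D3, against 0.007, -0.004 and -0.002 over all tested probes. All 3 comparisons share the same D0 mice. Since the genes were chosen with earlier results of these data known, these counts and shares are not independent support. With each array centred on its median in place of the loess scaling, the 7 called differences kept their sign at log2 values of 0.63 to 0.94, but none was called (limma adjusted p of 0.294 to 0.590). Because whole lung was measured, more (or fewer) cells of a type and more (or less) RNA per cell cannot be told apart. Each mouse was sampled once, at a time of day that is not given. A change in the level of these RNAs and a change in their daily timing therefore cannot be told apart either.

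**Figure D1:**
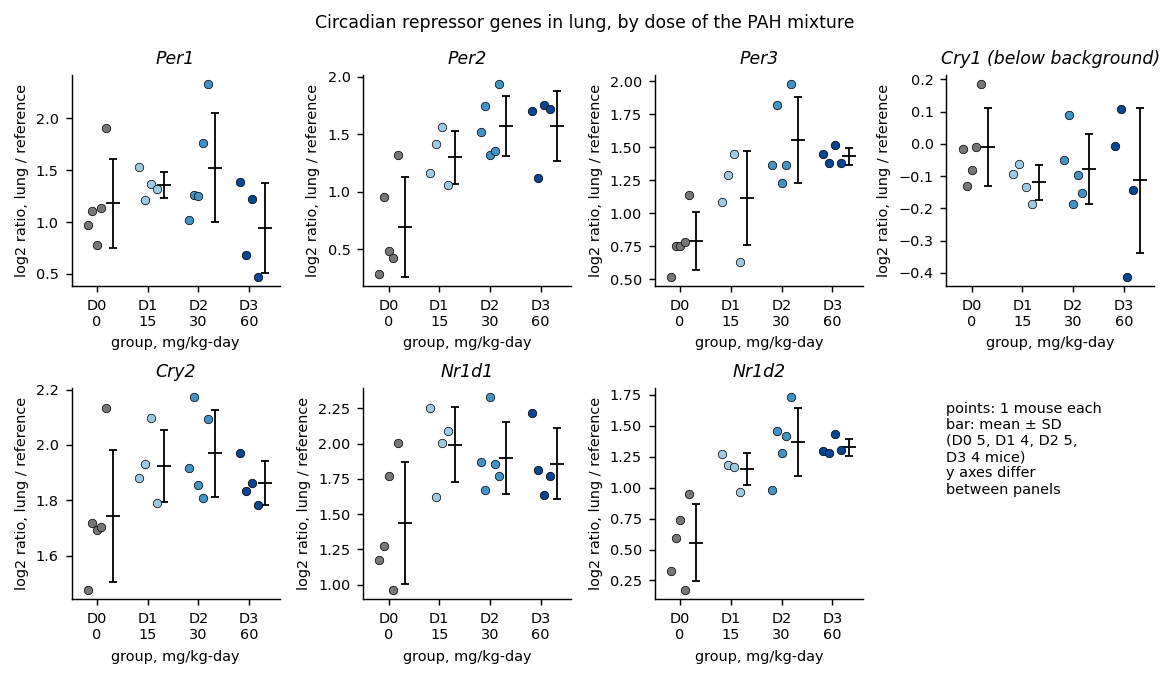
Log2 ratio of lung over reference RNA (y axis, a separate scale in each panel) for each of the 7 genes by group and dose in mg benzo[a]pyrene equivalents per kg per day (x axis), 1 point per mouse, with the group mean and SD (5, 4, 5 and 4 mice) as bars. For Nr1d2 all dosed mice lay above the highest D0 mouse at 0.95, for Per2 and Per3 all D2 mice lay above every D0 mouse, and Cry1, which was not well above background, stayed between -0.41 and 0.18.

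Nr1d2 (NM_011584) and Nr1d1 (NM_145434) encode receptors that recruit corepressors to Arntl and other genes. Nr1d2 was the only member called at all 3 doses. Its log2 ratios were 0.33, 0.59, 0.74, 0.17 and 0.95 in D0. They were 1.27, 1.18, 1.17 and 0.97 in D1, and 0.98, 1.46, 1.28, 1.41 and 1.73 in D2. In D3 they were 1.29, 1.28, 1.43 and 1.30. Every dosed mouse lay above every D0 mouse, although mouse 25 of D1 and mouse 23 of D2 exceeded the highest D0 mouse, mouse 5, by little. A full separation of the dose group above D0 was seen for 4.73% of all tested probes at D1, 2.51% at D2 and 7.47% at D3. The log2 difference from D0 was 0.59 at D1 (SE 0.14, 1.51-fold, limma adjusted p = 0.0228), 0.82 at D2 (SE 0.14, 1.76-fold, limma adjusted p = 0.00273) and 0.77 at D3 (SE 0.14, 1.71-fold, limma adjusted p = 0.0018). The D1 call sat at the fold limit. It was lost without mouse 1, 4, 21, 22 or 24 (log2 difference 0.50 to 0.58), and also with the deposited log2 table (0.57), with the lung channel alone (0.48) and with mouse 23 counted in D1 (0.56).

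Nr1d1 did not pass at any dose, and its groups overlapped. The D0 mice had log2 ratios of 1.17, 1.28, 1.77, 0.96 and 2.01. The D1 mice had 2.25, 1.62, 2.00 and 2.09, the D2 mice 1.87, 1.67, 2.33, 1.85 and 1.77, and the D3 mice 2.22, 1.81, 1.63 and 1.77. Every dosed mouse lay above the D0 mean of 1.44, yet mice 3 and 5 of D0 lay within the dosed range. From D1 to D3 the log2 differences were 0.55, 0.46 and 0.42, with limma adjusted p of 0.102, 0.213 and 0.165. Their 95% intervals, 0.16 to 0.95, 0.09 to 0.84 and 0.02 to 0.82, span values above the 1.5-fold limit. Without mouse 5 the D1 difference was 0.70 and was called (limma adjusted p = 0.0325).

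The promoters of this pair are shown because Nr1d2 moved and Nr1d1 was not called. Each sequence is 300 bases from RefSeq (build GRCm38.p6), read in the direction of transcription and ending 50 bases into the transcript, at chr14:18239057-18239356 (minus strand) for Nr1d2 and chr11:98775328-98775627 (minus strand) for Nr1d1. Capitals here and in the promoters shown further on mark, on either strand, the E-box CACGTG (bound by CLOCK and BMAL1), the D-box TTATGTAA, TTACGTAA or TTATATAA (bound by DBP, TEF, HLF and NFIL3), the RORE core AGGTCA (bound by ROR and REV-ERB receptors) and GCGTG, the core of the element bound by the aryl hydrocarbon receptor.
Nr1d2: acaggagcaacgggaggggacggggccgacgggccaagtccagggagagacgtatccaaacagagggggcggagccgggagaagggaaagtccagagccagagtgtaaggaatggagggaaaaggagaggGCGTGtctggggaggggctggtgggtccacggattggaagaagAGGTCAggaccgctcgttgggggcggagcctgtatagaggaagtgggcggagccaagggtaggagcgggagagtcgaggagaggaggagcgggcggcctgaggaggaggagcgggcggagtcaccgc
Nr1d1: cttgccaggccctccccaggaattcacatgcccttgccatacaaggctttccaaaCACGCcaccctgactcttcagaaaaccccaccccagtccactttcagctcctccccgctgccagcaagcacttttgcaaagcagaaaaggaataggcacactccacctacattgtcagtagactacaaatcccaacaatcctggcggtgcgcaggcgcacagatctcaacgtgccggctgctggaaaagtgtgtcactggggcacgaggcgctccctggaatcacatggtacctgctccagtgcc
In Nr1d2 the capitals are a GCGTG core at -120 and, at -77, an AGGTCA core, with positions counted upstream from the start site. In Nr1d1 the only match is GCGTG on the reverse strand, at -195. A match is a string of letters and not evidence of a bound site. Of 32851 promoters of the same length, 7.15% held the E-box, 1.59% the D-box, 16.3% the RORE core and 32.4% the GCGTG core.

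Among the period genes, whose proteins carry the CRYs into the repressor complex, Per2 and Per3 rose and Per1 was not called. Per2 (NM_011066) had log2 ratios of 0.28, 0.96, 0.49, 0.43 and 1.32 in D0. In D1 they were 1.16, 1.42, 1.56 and 1.06, and in D2 they were 1.52, 1.75, 1.33, 1.35 and 1.94. The D3 mice had 1.70, 1.12, 1.76 and 1.72. All D2 mice were above every D0 mouse, narrowly so for mouse 28, whereas mouse 32 of D3 and mice 21 and 25 of D1 lay below mouse 5 of D0. The log2 difference from D0 was 0.88 at D2 (SE 0.18, 1.84-fold, limma adjusted p = 0.0144) and 0.88 at D3 (SE 0.19, 1.84-fold, limma adjusted p = 0.00572). At D1 it was 0.61 (SE 0.19), past the fold limit but not the test (limma adjusted p = 0.0779). It was called without mouse 5 (0.76, limma adjusted p = 0.0184), with mouse 23 counted in D1 (0.65, adjusted p = 0.0487), with the lung channel alone (0.63, adjusted p = 0.0495) and without the third slide (0.84, adjusted p = 0.0398).

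Per3 (NM_011067) gave log2 ratios of 0.52, 0.76, 0.75, 0.78 and 1.14 in D0 and of 1.09, 1.29, 1.45 and 0.63 in D1. In D2 they were 1.37, 1.82, 1.23, 1.37 and 1.98, and in D3 they were 1.45, 1.38, 1.52 and 1.38. D2 and D3 were separate from D0, with the D3 mice tightly grouped (SD 0.07), while D1 straddled it, since mouse 25 of D1 lay below 4 of 5 D0 mice. The log2 difference was 0.33 at D1 (SE 0.16, limma adjusted p = 0.277), 0.76 at D2 (SE 0.15, 1.70-fold, limma adjusted p = 0.0118) and 0.64 at D3 (SE 0.16, 1.56-fold, limma adjusted p = 0.0142). The D3 value is close to the fold limit, and without mouse 1 it was 0.57 and no longer called.

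Per1 (NM_011065), which in other settings also responds within hours to glucocorticoids and to cAMP, had log2 ratios of 0.97, 1.11, 0.78, 1.13 and 1.91 in D0. The values were 1.53, 1.22, 1.37 and 1.32 in D1, 1.02, 1.26, 1.25, 1.77 and 2.33 in D2, and 1.38, 0.68, 1.23 and 0.47 in D3. Mouse 5 of D0 and mouse 30 of D2 stood above the others of their groups, and mice 32 and 35 of D3 were the lowest of all 18. From D1 to D3 its log2 difference from D0 was 0.18, 0.35 and -0.24, with limma adjusted p of 0.755, 0.540 and 0.592. At D3 the 95% interval ran from -0.76 to 0.28, so a rise as large as the estimate for Per2 lay outside it. Without mouse 5 the Per1 differences were 0.36, 0.53 and -0.06 in order of dose. With arrays centred on their medians they were 0.50, 0.55 and -0.003, and none was called in either setting. Whether the members differed from one another in their response was not tested.

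The promoters of Per1 and Per3 are shown for the same contrast between a gene that was not called and one that rose. The Per1 promoter upstream of its first start site lies at chr11:69098699-69098998 (plus strand) and that of Per3 at chr4:151044616-151044915 (minus strand), in the same build and with the same capitals.
Per1: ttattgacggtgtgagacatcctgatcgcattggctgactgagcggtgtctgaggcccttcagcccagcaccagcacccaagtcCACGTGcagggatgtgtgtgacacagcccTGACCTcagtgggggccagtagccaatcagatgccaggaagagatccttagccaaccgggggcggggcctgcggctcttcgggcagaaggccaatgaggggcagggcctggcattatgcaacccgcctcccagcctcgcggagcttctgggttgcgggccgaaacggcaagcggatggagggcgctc
Per3: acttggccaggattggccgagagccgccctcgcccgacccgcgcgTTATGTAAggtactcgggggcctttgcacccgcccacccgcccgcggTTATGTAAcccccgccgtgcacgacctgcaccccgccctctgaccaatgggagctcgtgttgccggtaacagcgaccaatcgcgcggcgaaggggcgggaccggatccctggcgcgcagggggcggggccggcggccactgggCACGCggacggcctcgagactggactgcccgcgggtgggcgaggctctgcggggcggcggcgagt
Per1 holds an E-box at -166 and a RORE core on the reverse strand at -137. Per3 holds a pair of D-boxes, at -205 and -158, and a GCGTG core on the reverse strand at -15. Promoters were found for 6 of 7 members, all but Per2, and Per1 had a second one that is not shown, which makes 7 promoters. The E-box was present in 2 of the 7 (the first of Per1, and Cry1), the D-box in 1 (Per3) and the RORE core in 2 (the first of Per1, and Nr1d2). The GCGTG core was in 6 of 7, all but the first promoter of Per1. The cAMP element TGACGTCA, held by 1.79% of all promoters, was in none of them. Its shorter core TGACG, which the capitals do not mark and 20.8% of all promoters hold, was in 4 of 7, at -246 and -132 in the first and second promoters of Per1 and once each in those of Cry1 and Cry2.

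The cryptochrome genes encode the proteins that hold CLOCK and BMAL1 inactive. Cry2 (NM_009963) had log2 ratios of 1.48, 1.72, 1.69, 1.70 and 2.13 in D0 and of 1.88, 1.93, 2.10 and 1.79 in D1. In D2 they were 1.92, 2.17, 1.85, 1.81 and 2.09, and in D3 they were 1.97, 1.83, 1.86 and 1.78. Every dosed mouse lay above 4 of 5 D0 mice, and mouse 5 exceeded all of them but mouse 26. Its log2 differences from D0 were 0.18, 0.22 and 0.12 in order of dose, with limma adjusted p of 0.387, 0.313 and 0.544. The upper ends of the 95% intervals were 0.41, 0.44 and 0.35, which are below the 1.5-fold limit. Without mouse 5 the Cry2 differences were 0.28, 0.32 and 0.21. With arrays centred on their medians they were 0.49, 0.43 and 0.32, and none was called in either setting. Cry1 (NM_007771) was not well above background in the lung or the reference channel of any mouse, so no difference between groups is given. Its log2 ratios ranged from -0.41 to 0.18 over the 18 mice.

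**Figure D2:**
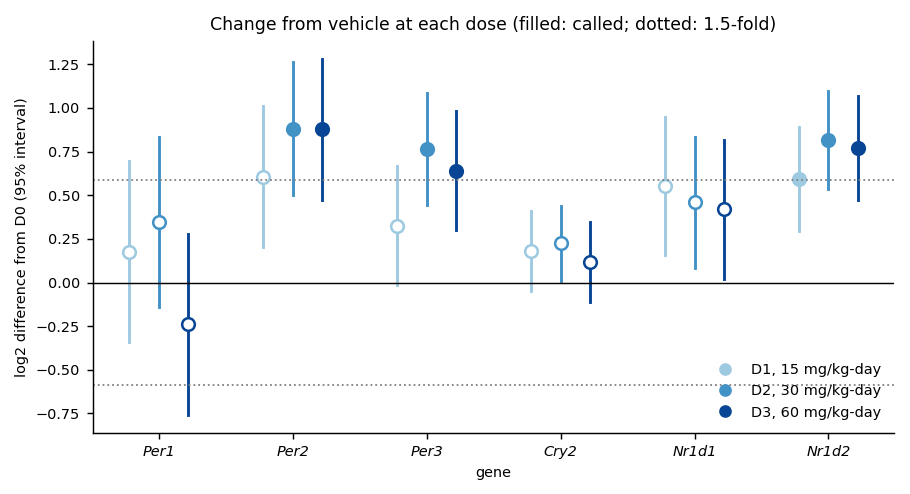
Log2 difference from D0 (y axis) of the 6 tested genes (x axis) at D1, D2 and D3, with 95% intervals from limma as vertical lines, filled points for called differences and dotted lines at a 1.5-fold change. Filled points are seen for Per2 and Per3 at D2 and D3 and for Nr1d2 at all 3 doses, and the Per1 estimate changes sign to -0.24 at D3.

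By group mean, Per2, Per3 and Nr1d2 stood no higher in D3 than in D2. Nr1d2 stood at 0.56 ± 0.31 in D0 (SD, n = 5), 1.15 ± 0.13 in D1 (n = 4), 1.37 ± 0.27 in D2 (n = 5) and 1.33 ± 0.07 in D3 (n = 4). Per2 went from 0.70 ± 0.43 to 1.30 ± 0.23, 1.58 ± 0.26 and 1.57 ± 0.31, and Per3 from 0.79 ± 0.22 to 1.12 ± 0.35, 1.55 ± 0.33 and 1.43 ± 0.07. From D2 to D3, where the dose doubled, limma gave log2 differences of -0.05 for Nr1d2 (95% interval -0.35 to 0.25), 0.00 for Per2 (-0.40 to 0.40) and -0.12 for Per3 (-0.46 to 0.22). No member was called between neighbouring doses, beside 0% of all tested probes for D2 against D1 and 0.106% for D3 against D2. The smallest adjusted p values of these steps were those of Per1 from D2 to D3, with a difference of -0.58 (limma adjusted p = 0.362), and of Per3 from D1 to D2, with 0.44 (limma adjusted p = 0.382). For Per1 all D3 mice lay below the D2 mean of 1.53, and the groups overlapped.

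A linear trend over dose was called rising for 3 of 6 members, beside 0.919% of all tested probes, with a fitted log2 change from D0 to D3 of 0.80 for Per2 (limma adjusted p = 0.014), 0.64 for Per3 (adjusted p = 0.0186) and 0.68 for Nr1d2 (adjusted p = 0.0056). The trend of Per3 fell under the fold limit or the test without mouse 1, 25 or 34, that of Per2 was no longer past the test without mouse 35, and that of Nr1d2 was under the fold limit with the lung channel alone (0.56). Per1, Cry2 and Nr1d1 had fitted changes of -0.27, 0.09 and 0.30, none called. An F test over the 3 doses also passed for 3 of 6 members, Per2, Per3 and Nr1d2 (limma adjusted p of 0.0115, 0.0136 and 0.00256), beside 7.79% of all tested probes.

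The spread among the D0 mice was carried in part by 1 animal. Mouse 5, the D0 mouse of the third slide, had the highest D0 value for all 6 tested members, and mouse 30 had the highest D2 value for 4 of 6. Within slides, the D2 and D3 differences of Per2, Per3 and Nr1d2 were above 0 on all 3 slides. They were smallest on the third slide, which held 1 mouse of each group, at 0.20 and 0.28 for Per2, 0.23 and 0.11 for Per3, and 0.03 and 0.20 for Nr1d2. On the other slides they ran from 0.74 to 1.34. At D1 the third slide gave -0.26 for Per2 and -0.50 for Per3. With slide as a term in the model, the same 7 differences were called, with log2 values of 0.61 to 0.90 and limma adjusted p of 0.00194 to 0.0188. The part of slide and of mouse 5 in the smaller differences of the third slide cannot be told apart, since that slide held no other D0 mouse. The pair of arrays of mouse 35, 1 on the second and 1 on the third slide, gave 1.85 and 1.59 for Per2, 1.51 and 1.25 for Per3, and 1.45 and 1.15 for Nr1d2, lower on the third slide each time, as was Per1 (0.62 and 0.32). Cry2 (1.77 and 1.80) and Nr1d1 (1.72 and 1.82) were not lower there.

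After the group means were removed, Per2, Per3 and Cry2 varied together among mice of the same dose. Of 15 pairs of members, 4 passed a 2-sided permutation test within groups for both Pearson's r and Spearman's rho over 18 mice, with p adjusted over the 15 pairs. Per3 and Cry2 gave r = 0.835 (adjusted permutation p = 0.00112) and rho = 0.920 (adjusted p = 0.00165). For Per2 and Cry2 r was 0.810 (adjusted permutation p = 0.0015) and rho 0.728 (adjusted p = 0.00945), and for Per2 and Per3 r was 0.762 (adjusted permutation p = 0.0003) and rho 0.752 (adjusted p = 0.00225). Per3 and Nr1d2 gave r = 0.659 (adjusted permutation p = 0.0231) and rho = 0.651 (adjusted p = 0.0419). These r were 0.881, 0.790, 0.781 and 0.566 once the 2 mice farthest from the median of the first-named gene were left out. Mice far from the median of the second gene alone stayed in. No pair with Nr1d1 or Per1 passed. Nr1d1 gave r from -0.08 to 0.38 with the other members, and up to 0.49 (with Nr1d2) once slide means were removed as well. Per1 gave r of 0.24 to 0.62 with the others, and those values fell to 0.09 to 0.28 without mice 5 and 30. Members of a mouse share its array and the scaling of that array, and with another scaling (each array centred on its median) r was 0.464 or more for every pair, and 14 of 15 pairs passed for both r and rho. With the loess scaling and slide means removed as well, 3 pairs passed for both, those among Per2, Per3 and Cry2. Per3 with Nr1d2 no longer passed (r = 0.640, adjusted permutation p = 0.0578), and Per2 with Nr1d2 passed for r alone (r = 0.677, adjusted permutation p = 0.0401, and 0.0669 for rho). The part of the array in these correlations was not tested.

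**Figure D3:**
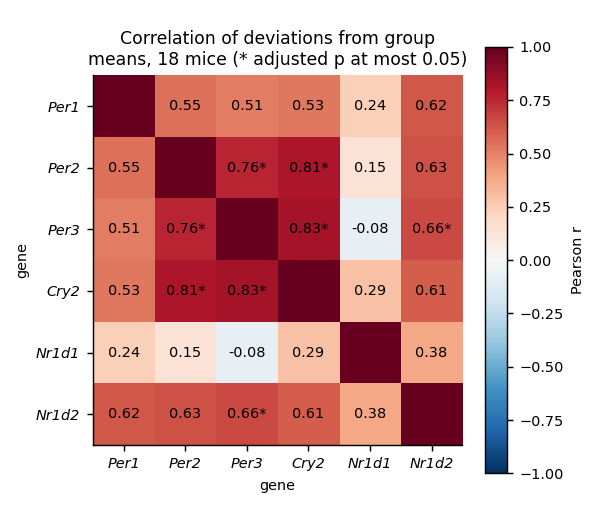
Pearson's r between each pair of the 6 tested genes (both axes) over the deviations of 18 mice from their group means, printed in each square and coloured from -1 to 1, with a star where the permutation p adjusted over 15 pairs is at most 0.05 for r. The starred squares join Per2, Per3 and Cry2 with one another and Per3 with Nr1d2, and the Nr1d1 row holds values from -0.08 to 0.38.

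Over the log2 ratios of the 18 mice, groups included, the genes most like each member were listed from 14734 other named genes, as a description with no test. The genes nearest to Nr1d2 were Dbp (r = 0.936), Tspan4 (0.924) and Tef (0.903). Per3 was nearest to Usp2 (0.916), Tef (0.901) and Per2 (0.890), and Per2 to Per3 (0.890), Wee1 (0.890) and Neu2 (0.888). Dbp and Tef encode transcription factors that act at D-boxes, Usp2 a deubiquitinase and Wee1 a kinase that restrains entry into mitosis, all rhythmic in many tissues. Per1 had other neighbours, the Notch target Hey1 (0.845), the stress gene Herpud1 (0.797) and Tsc22d3 (0.746), a glucocorticoid-induced gene. Cry2 was nearest to Glul (0.807), which encodes glutamine synthetase, followed by Per3 (0.775) and Per2 (0.774). Nr1d1 was nearest to Nrde2 (0.801), Cep120 (0.800) and Rftn1 (0.792), none of them a member of the clock lists. These mice differ in dose, so genes that moved with dose resemble one another in this measure. Over deviations from the group means most of the neighbours were others. Nr1d2 was then nearest to Rhebl1 (0.823), Vps26a (0.820) and Zfp189 (0.792), none of them in the clock lists, and Per2 to Coro2a (0.830), Cry2 (0.810) and Neu2 (0.800). Among the genes nearest to Per3 were Cry2 (0.835) and Usp2 (0.821), and Per1 was nearest to Hey1 (0.806), Prkaa2 (0.804) and Txnrd3 (0.790). Cry2 was nearest to Per3 (0.835), Zfp946 (0.825) and Per2 (0.810), and Nr1d1 to Vps25 (0.806), Prune1 (0.778) and Sgsm3 (0.753).

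The other genes of the clock were read from a list of 35, also chosen with earlier results known, of which 33 were tested. At D1 2 were called higher and none lower, beside 0.594% and 0.465% of all tested probes. At D2 8 were higher and 2 lower, beside 0.435% and 0.19%. At D3 5 were higher and 2 lower, beside 1.21% and 1.23%. The median log2 difference of the list was 0.10, 0.01 and 0.07, against 0.007, -0.004 and -0.002 over all tested probes. Among the output factors, which act at E-boxes and D-boxes, Dbp rose most, from a mean log2 ratio of 0.81 ± 0.61 in D0 (range 0.24 to 1.78) to 2.16 ± 0.45, 2.69 ± 0.20 and 2.53 ± 0.16. Its log2 differences were 1.35, 1.87 and 1.72 (limma adjusted p of 0.00355, 0.000118 and 0.000172). Tef rose by 0.98 at D2 and 0.71 at D3 and Hlf by 0.94 and 0.75, whereas Nfil3, which represses at the D-box, fell by 0.93 and 0.66 on the log2 scale. Bhlhe40, an E-box repressor, was called at D2 (0.59).

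Of the activators, Arntl fell, with mean log2 ratios of -0.05 ± 0.40 in D0, -0.67 ± 0.58 in D1, -1.35 ± 0.50 in D2 and -1.31 ± 0.04 in D3. Its log2 differences were -0.62 at D1 (limma adjusted p = 0.186), -1.30 at D2 (adjusted p = 0.00718) and -1.26 at D3 (adjusted p = 0.0038). Clock, with differences of -0.22, -0.35 and -0.39, was not called, nor were Rora, Rorb and Npas2. Among clock-controlled genes, Tspan4 rose at all 3 doses (0.77, 1.11 and 1.24), Wee1 at D2 and D3 (0.94 and 1.00) and Usp2 at D2 (0.73). Among the partners of the repressors 1 was called, Tipin at D2 (0.62). None of the 6 tested kinases and ubiquitin ligases that act on PER and CRY proteins was called at any dose, and none of the 6 genes that respond to hormones or cAMP, whose log2 differences lay between the D3 and D1 values of Zbtb16 (0.72, 0.08 and -0.56 in order of dose). With mouse 23 counted in D1, 3, 8 and 7 other clock genes were called at D1, D2 and D3. The 19 called differences of other clock genes and the 7 of the members kept their sign under all 4 other scalings tried, although 0, 1 and 1 other clock genes were called at D1, D2 and D3 with arrays centred on their medians.

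**Figure D4:**
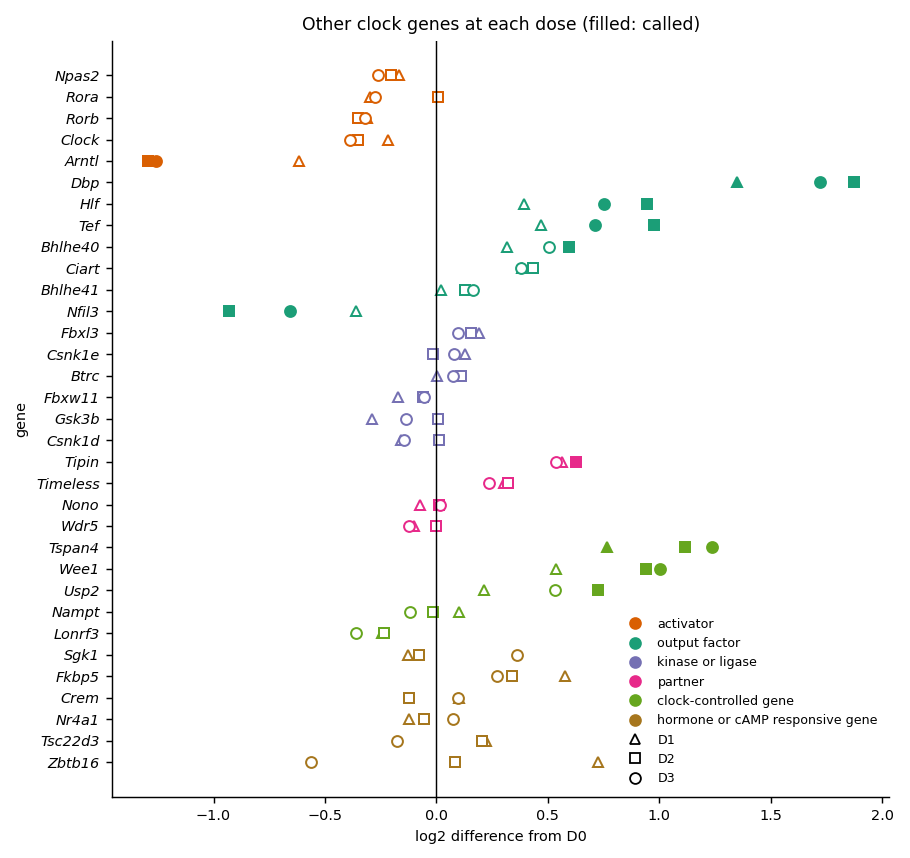
Log2 difference from D0 (x axis) of the 33 tested genes of the other clock list (y axis), coloured by role, with triangles for D1, squares for D2 and circles for D3, filled where called. Dbp reaches 1.87 on the right, Arntl -1.30 on the left, and the kinases, ligases and hormone responsive genes hold open symbols only.

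Some markers of other cells were called at 1 dose or more, not always at the highest. Over all tested probes, 0.594%, 0.435% and 1.21% were called higher at D1, D2 and D3, and 0.465%, 0.19% and 1.23% lower. Of 3 tested neutrophil genes, 3 were called higher at D3, S100a8 by 1.77, S100a9 by 0.86 and Cxcr2 by 0.92 on the log2 scale, and their mean log2 ratio was 2.49 to 3.51 over the D0 mice and 3.65 to 5.16 over the D3 mice. Of 4 alveolar macrophage genes, Siglecf was called lower at D2 (-1.05) and Krt79 at D3 (-1.40). Their list was not of 1 direction, since Marco, not called, had log2 differences of 0.71, 0.37 and 0.94 from D1 to D3 and Chil3, also not called, had -0.44, -1.39 and -1.03. The mean of the 4 ranged from 3.79 to 4.11 in D0, 3.57 to 4.35 in D1, 2.83 to 3.75 in D2 and 3.19 to 3.78 in D3. Gzma, a granzyme of cytotoxic cells, was called lower at all 3 doses (-3.07 at D3), with the other 5 genes of the T and NK cell list not called. None of the 6 alveolar type 2, 2 club and 3 ciliated cell genes was called at any dose, and 1 of 5 alveolar type 1 genes was (Cav1, -0.64 at D3). Of 4 endothelial genes Pecam1 was called higher at D1 (0.67) and D3 (0.66), of 4 fibroblast genes Dcn was called lower at D3 (-0.82), and none of 3 B cell and 2 erythroid genes was called. The part of these shifts in the values of Per2, Per3 and Nr1d2 was not tested.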

How the data were processed

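Lung RNA (Cy5, red) of 18 mice was hybridized with reference RNA (Cy3, green) to 19 Agilent arrays, with no dye swap, which leaves the ratios open to dye bias. The deposited scanner files hold intensity values, the median brightness of each spot, not normalized and without background subtraction. They also hold processed intensity values, already background-subtracted and dye-normalized by the scanner's software, and marks (scored 0 or 1) for spots well above background, outlying or saturated. The deposited series table holds log2 ratios that the authors made by LOWESS, and it was an alternative here. The software release in the file headers is not the one named in the study's methods.

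Outlying spots (171 to 323 per array) and 3671 control spots were left out of 62976, no spot was saturated, and median signals were normalized by loess (span 0.3) within each array. Ratios correlated with the deposited ones at 0.995 to 0.998. The arrays of mouse 35 were averaged. A probe was tested where red was well above background in at least 4 mice of 1 group. Of 22765 RefSeq-type identifiers, 21465 matched a gene symbol in a RefSeq table (GRCm38.p6). The comparison of groups used limma (version 3.58.1, R 4.3.3) and 1 model over 4 groups with 14 residual degrees of freedom, in place of the study's MAANOVA. Mice are the replicates, their number limits the precision, and no depth applies to arrays. Correlations used 100000 permutations within groups. The fit was tested on simulated data with known changes.

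The members and the gene lists were chosen with earlier results of these data known. One gene of the clock list and 1 of those most like a member are not reported here. Named genes are the members, the clock and marker lists, and the 3 genes most like each member. Alternatives covered normalization, background, the deposited table, the lung channel alone, the filter, slide, mouse 35, mouse 23 and leaving out each mouse. Leaving out the third slide was added after seeing the data.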

Additional observations from a re-analysis of the deposited data

Results flagged for a closer look

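Of 24 sets of a tested gene and a group, 2 held a mouse whose gap to its nearest neighbour was large against the group's range, past Dixon's 95% critical value, which chance alone passes in about 5% of such sets. For Per2 in D3, mouse 32 had a log2 ratio of 1.12, and the nearest other mouse had 1.70. For Nr1d2 in D3, mouse 34 had 1.43, and the nearest other had 1.30, within a group whose SD was 0.07.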

How the results depend on the processing

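Of 696 log2 differences and trends of members recomputed under alternatives, none changed direction, 24 lost the call and 5 gained it. Only the 7 differences and 3 trends called in the main fit could lose a call. Most alternatives left out 1 mouse of the same data. Centring each array on its median in place of loess ended every call of a member, with 0 members at D1, D2 and D3, 0 in the trend and 0 in the F test, and 0, 1 and 1 other clock genes. It moved the median difference of all probes to 0.17 at D1, 0.12 at D2 and 0.06 at D3, and cut the calls over all probes from 328, 194 and 754 (184, 135 and 374 higher) to 12, 18 and 98 (12, 16 and 81 higher). Relative to that shift the values of the called genes stayed near those reported. At D2 and D3 they were 0.81 and 0.81 for Per2, 0.71 and 0.57 for Per3 and 0.82 and 0.79 for Nr1d2. Among genes not called, the relative values from D1 to D3 were 0.33, 0.43 and -0.06 for Per1. They were 0.32, 0.31 and 0.26 for Cry2, and 0.61, 0.50 and 0.49 for Nr1d1. These relative values have no test, and the limma adjusted p of 0.294 to 0.590 belong to the 7 called differences before the shift was taken off. Under it 14 pairs of members passed, and r of Per3 and Nr1d1 turned to 0.464. With the loess scaling and slide means removed, r of this pair was 0.030. The deposited table gave 0 members at D1, and leaving out 1 mouse gave 0 to 3 (3 without mouse 5) and, for other clock genes at D1, 2 to 4. Without the third slide, chosen after seeing the data, 2 members and 6 other clock genes were called at D1. Each member had 1 probe, so the choice of probe could not be varied. The groups share no mouse numbers, so the numbers pair no samples, and slide was the block that could be fitted. The cause of these changes was not tested.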
